A study of Mus musculus with 6 samples.

Results

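The genes described here are the BCL2 family, the caspases, the death receptors and the proteins that work directly with them. They are 43 genes listed by symbol by their known roles, at a time when earlier results of these data were known. Of these, 40 had a transcript cluster annotated with exactly 1 symbol, out of 22180 genes so annotated on the array, and each gene was represented by its brightest such cluster. Bax, Bnip3l and Ripk1 had no such cluster and were not analysed here. RNA came from D2.OR cells, a mouse mammary tumor line that stays dormant after it has spread, grown for 7 days in 3D-culture before hybridization to 6 Affymetrix Mouse Gene 2.0 ST arrays. BORG/sgTRIM28 cells expressed the long noncoding RNA BORG together with Cas9 and a guide RNA against Trim28, whose protein is a transcriptional corepressor. BORG cells expressed the same lncRNA without that guide, and parental cells carried the empty vector. Cas9 and the guide were delivered by lentivirus with puromycin selection. The sources used here do not say whether BORG and parental cells carried a control guide. The part of Cas9, virus and selection in the differences was not tested. There were 2 arrays per group, called biological replicates by the labels with nothing said of separate cultures, so p-values measure the spread between these arrays. The lines were made by stable drug selection, and the sources used here do not say whether a line is a clone or a pool. The comparisons ask how these genes differ with BORG in latent cells, and with the guide against Trim28 and its Cas9 vector in cells that express BORG.

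Apoptosis runs along an intrinsic and an extrinsic route. In the intrinsic route BH3-only proteins sense stress and bind the anti-apoptotic members BCL2, BCL-XL and MCL1, which frees the effectors BAX and BAK to open the outer mitochondrial membrane, and the released cytochrome c activates caspase-9 on the APAF1 apoptosome. In the extrinsic route death receptors recruit FADD and caspase-8, which the decoy protein cFLIP restrains, while the inhibitor of apoptosis (IAP) proteins restrain caspases. Mammary epithelial and tumor cells that lose attachment to matrix die by anoikis, a form of apoptosis in which the BH3-only proteins BIM and BMF are known to act.

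The deposited values are log2 signals, so that a difference of 1 is a 2-fold difference. Array medians lay between 5.18 and 5.24, and all maxima were 13.7. Trim28 had log2 signals of 9.50 and 9.53 in BORG/sgTRIM28 cells, 9.88 and 9.96 in BORG cells and 10.50 and 10.68 in parental cells. It changed by -0.41 in BORG/sgTRIM28 against BORG cells (adjusted p = 0.0911 from limma, not past the threshold) and by -0.67 in BORG against parental cells (adjusted p = 0.0271). In BORG/sgTRIM28 against parental cells it changed by -1.07 (adjusted p = 0.058 from limma, not past the threshold). A guide can disrupt a protein without lowering its transcript. The paper reports a frameshift and early stop codon in Trim28 from a guide, without saying which guide these arrays carried. It also describes TRIM28 expression as inactivated in BORG-expressing D2.OR cells, and reduced outgrowth whichever guide was used. Marker genes listed for the cell types gave a mixed picture of the mammary label. Krt8, Krt18 and Krt14 were bright, whereas Epcam, Krt19 and Esrp1 lay below the series median. The mean log2 signal of the epithelial markers (10 of 11 found, 7 above the series median) was 6.77 to 6.84 in BORG/sgTRIM28 cells, 7.14 to 7.17 in BORG cells and 6.67 to 6.69 in parental cells. This mean was highest in BORG cells, and its part in the results was not tested. Only Krt8, Krt18 and Krt14 passed, with log2 changes of 1.31, 1.49 and 1.32 in BORG against parental cells. Of the markers that did not pass, Cldn3 and Esrp1 changed by -0.18 and -0.24 there, and the rest by 0.02 to 0.49. The leukocyte markers (9 of 10 found) averaged 4.91 to 4.95 in BORG/sgTRIM28 cells, 4.84 to 4.88 in BORG cells and 4.83 to 4.99 in parental cells and 2 of them, Cd68 and Nkg7, lay above the series median, the others, Ptprc among them, below it. The fibroblast markers (7 of 7 found, 3 above the series median) averaged 6.34 to 6.42 in BORG/sgTRIM28 cells, 6.49 to 6.61 in BORG cells and 6.54 to 6.55 in parental cells. Their 3 bright members moved in different directions. Pdgfra rose in BORG/sgTRIM28 against BORG cells by a log2 change of 0.99 (adjusted p = 0.00741 from limma) and fell by 1.25 in BORG against parental cells (adjusted p = 0.00442). Pdgfrb and Col1a1 fell by 1.72 (adjusted p = 0.00426) and 1.29 (adjusted p = 0.00866) in BORG/sgTRIM28 against BORG cells and rose by 1.13 (adjusted p = 0.0182) and 1.18 (adjusted p = 0.014) in BORG against parental cells. The endothelial markers (6 of 6 found, 2 above the series median) averaged 4.71 to 4.82 in BORG/sgTRIM28 cells, 4.84 to 4.86 in BORG cells and 4.80 to 4.90 in parental cells, and the adipocyte markers (4 of 4 found, 2 above it) 4.85 to 4.89 in BORG/sgTRIM28 cells, 4.68 to 4.84 in BORG cells and 4.73 to 4.78 in parental cells. The part of these markers in the results was not tested. In bulk RNA, fewer cells of a kind and less RNA per cell cannot be told apart.

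Most of the cell death genes were brighter than the median cluster. Averaged over the 6 arrays, 35 of the 40 genes lay above the median cluster signal of 5.21, and their median percentile among all clusters was 76.8. Casp8, Mlkl, Cycs and Mcl1 were the brightest, and Hrk and Fasl the dimmest. No detection value accompanies the signals, so a dim gene cannot be called absent.

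In BORG/sgTRIM28 against BORG cells, the survival genes Bcl2l1 and Mcl1, the mitophagy gene Bnip3, Casp8 and its inhibitor Cflar fell, while Casp1, Casp12, the BH3-only gene Pmaip1 and Cycs rose. Of the 40 genes, 14 passed an adjusted p of 0.05 in limma, 4 higher and 10 lower (35.0%). Over all clusters the share was 9.55%, or 4.24% higher and 5.31% lower, over all named genes it was 12.5%, and over named genes brighter than the median cluster it was 21.6%. The median log2 change was -0.12 over the 40 genes and 0.05 over all clusters. The calls of Bcl2l1, Casp1 and Htra2 held when any single array was left out. Leaving out either BORG/sgTRIM28 array ended all the other calls. Leaving out BORG replicate 1 or either parental array ended some of them, and without BORG replicate 2 the count rose. Calls over all clusters fell or rose in the same way in each of these settings. With only the 4 arrays of the groups compared 8 genes passed, beside 5.05% of all clusters. The methods' two-tailed t-test passed 0 after adjustment, as over all clusters, and 15 before it, where 15.5% of all clusters had such an unadjusted p. With 2 arrays against 2, an exact permutation test cannot go below a two-sided p of 0.333.

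In BORG against parental cells, Bnip3, Bcl2l1, Casp8, Bok, Birc3, Htra2, Mcl1, Tnfrsf10b and Cflar rose, and Fas, Bcl2l11, Casp1 and Diablo fell. These 13 of 40 genes (32.5%), 9 higher and 4 lower, stand beside 7.09% of all clusters, 4.12% higher and 2.98% lower, 9.7% of all named genes and 16.9% of named genes brighter than the median cluster. The median log2 change was 0.11 over the 40 genes and -0.03 over all clusters. The count depended on the parental arrays, since leaving out either ended all or nearly all of these calls. Calls over all clusters also fell sharply, though by a smaller part. Whether the loss was particular to these genes was not tested. Leaving out BORG replicate 1 also ended some of the calls of these genes, and without BORG replicate 2 their count rose. Calls over all clusters moved the same way. With only the 4 arrays of the groups compared 9 genes passed, beside 3.81% of all clusters, and Mcl1, Diablo, Tnfrsf10b and Cflar no longer did. Leaving out either BORG/sgTRIM28 array gave the same calls. The methods' t-test passed 0 genes after adjustment, as over all clusters, and 19 before it, where 14.9% of all clusters had such an unadjusted p. Both comparisons use the BORG arrays, so a high or low BORG signal enters both with opposite sign, and their values are given side by side without a test of their relation. Where a pair of changes is given for a gene without naming the groups, the first is BORG/sgTRIM28 against BORG cells and the second BORG against parental cells.

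In BORG/sgTRIM28 against parental cells, 0 of the 40 genes passed, where 0.121% of all clusters did, 0.162% of all named genes and 0.205% of the brighter ones. The unadjusted limma p was under 0.05 for 5 genes (Bcl2l11, Bmf, Casp12, Fas and Ripk3), beside 8.7% of all clusters. The methods' t-test gave 0 adjusted, as over all clusters, and 9 unadjusted, beside 9.93% of all clusters unadjusted. Log2 changes over the 40 genes ran between -1.44 and 0.52 with a median of -0.03, and a gene that did not pass was not thereby shown to be equal in the 2 groups. The plot of log2 changes by role shows all 40 genes in the 3 comparisons.

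**Figure D1:**
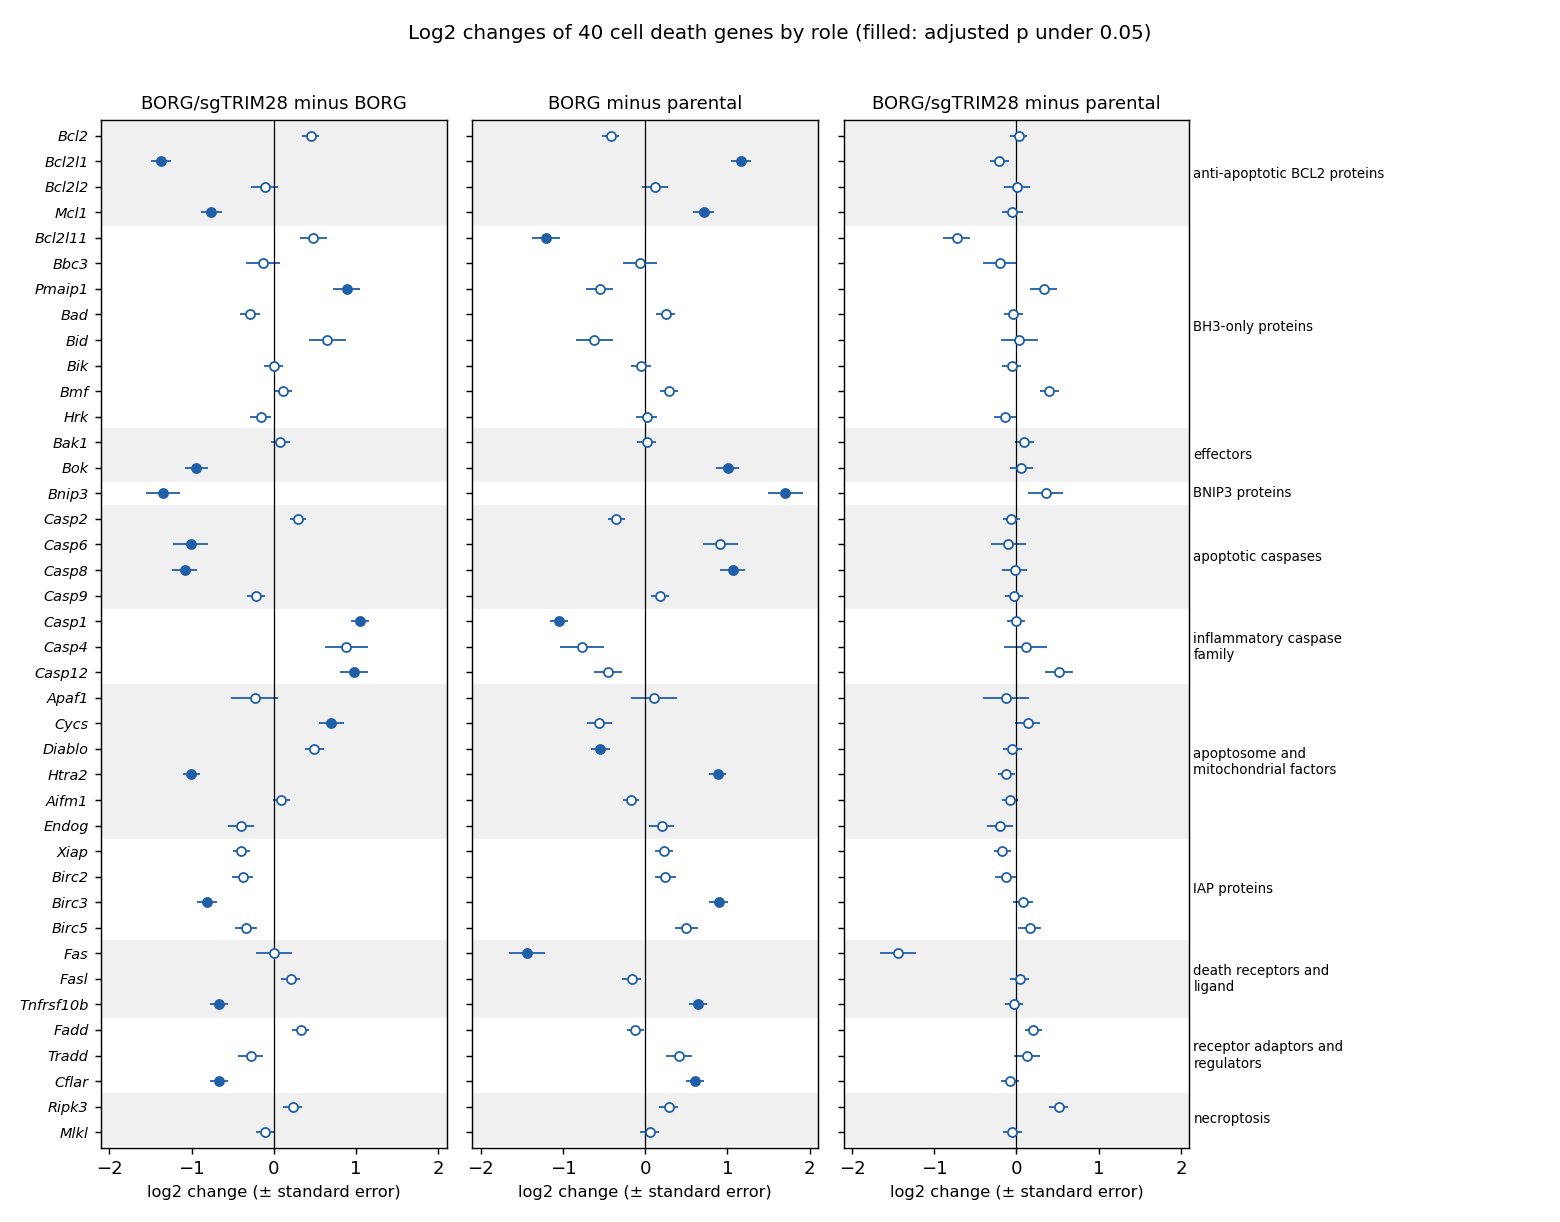
Log2 change of each of the 40 genes (points, horizontal axis, log2 units) with its standard error (bars) in the 3 comparisons, genes listed by role from top to bottom, filled where the adjusted p from limma was under 0.05. Filled points number 14 for BORG/sgTRIM28 against BORG cells, 13 for BORG against parental cells and 0 for BORG/sgTRIM28 against parental cells.

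**Figure D2:**
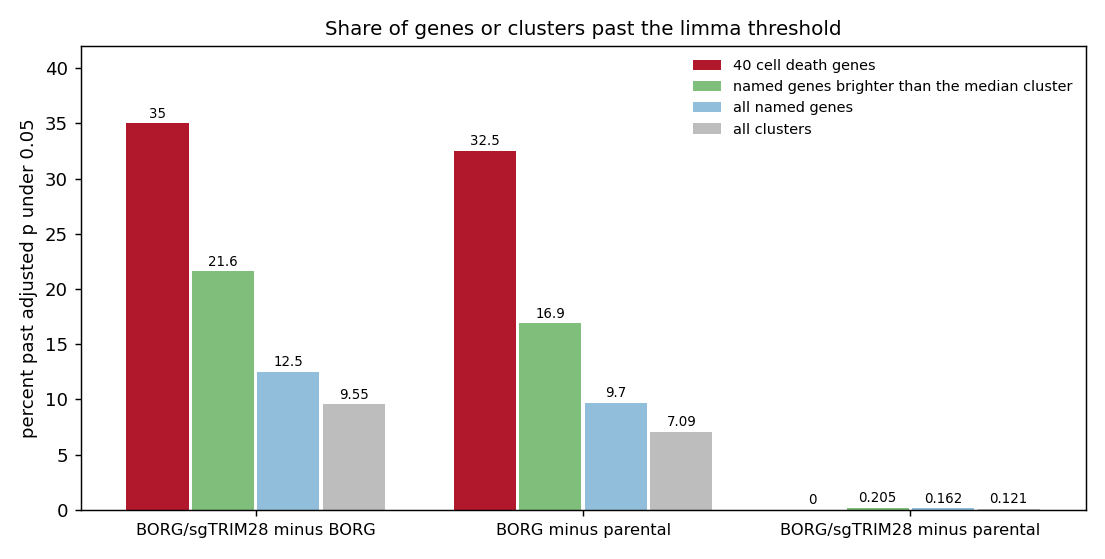
Percent of the 40 cell death genes, of named genes brighter than the median cluster, of all named genes and of all clusters (bars, vertical axis in percent) past an adjusted p of 0.05 from limma in each comparison. The 40 genes stand at 35.0% and 32.5% in the first and second comparison and at 0% in the third.

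Among the anti-apoptotic BCL2 genes, Bcl2l1 and Mcl1 were higher in BORG cells than in both other groups, and Bcl2 did not follow them. Bcl2l1, which encodes BCL-XL, had log2 signals of 7.50 and 7.39 in BORG/sgTRIM28 cells, 8.76 and 8.89 in BORG cells and 7.58 and 7.73 in parental cells. Both BORG arrays lay above the other 4. The log2 change was -1.37 (SE 0.12, 0.386-fold, adjusted p = 0.00265 from limma) in BORG/sgTRIM28 against BORG cells and 1.17 (2.25-fold, adjusted p = 0.00572) in BORG against parental cells. Mcl1, a short-lived survival protein, had signals of 10.11 and 10.26 in BORG/sgTRIM28 cells, 11.06 and 10.84 in BORG cells and 10.24 and 10.23 in parental cells. Its log2 changes were -0.76 (SE 0.13, adjusted p = 0.0199) in BORG/sgTRIM28 against BORG cells and 0.71 (adjusted p = 0.0290) in BORG against parental cells. A second, dimmer Mcl1 cluster near the median signal gave -0.60 and 0.48 for the same differences, neither past the threshold. Bcl2, the founding member of the family, went the other way in its values, with 8.006 and 7.999 in BORG/sgTRIM28 cells, 7.55 and 7.56 in BORG cells and 7.93 and 8.02 in parental cells. Neither its log2 change of 0.45 (adjusted p = 0.0515) in BORG/sgTRIM28 against BORG cells nor that of -0.42 (adjusted p = 0.0719) in BORG against parental cells passed, although the arrays did not overlap, as was so for 52.4% and 50.5% of all clusters. Both changes passed under the same 4 other settings, among them a variance trend (adjusted p = 0.0329 and 0.0466). A second, dim Bcl2 cluster gave -0.02 and 0.09, neither past the threshold. For Bcl2l2, which encodes BCL-W, the groups overlapped in both comparisons and the log2 changes were -0.11 and 0.12.

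Of the 8 BH3-only genes, the initiators of the intrinsic route, 1 (12.5%) passed in each of the comparisons that use the BORG arrays. This share is near that of all named genes, 12.5% in the first and 9.7% in the second, and below that of the brighter ones, 21.6% and 16.9%. The gene was not the same in both, and 0 passed in BORG/sgTRIM28 against parental cells. Bcl2l11, which encodes BIM, had signals of 7.98 and 7.85 in BORG/sgTRIM28 cells, 7.65 and 7.22 in BORG cells and 8.60 and 8.68 in parental cells. The parental arrays were the highest and the BORG arrays the lowest, with no overlap between any groups. The log2 change was -1.20 (SE 0.17, 0.434-fold, adjusted p = 0.0139 from limma) in BORG against parental cells and 0.48 (adjusted p = 0.146) in BORG/sgTRIM28 against BORG cells. Against parental cells, BORG/sgTRIM28 cells differed by -0.73 (95% confidence interval -1.13 to -0.32, adjusted p = 0.287). Pmaip1, which encodes NOXA, an antagonist of MCL1, had signals of 7.16 and 7.27 in BORG/sgTRIM28 cells, 6.12 and 6.55 in BORG cells and 6.84 and 6.93 in parental cells. It was higher by a log2 change of 0.88 (SE 0.17, 1.85-fold, adjusted p = 0.0285) in BORG/sgTRIM28 against BORG cells, and its change of -0.55 in BORG against parental cells did not pass (adjusted p = 0.116). Bid, which caspase-8 cleaves to link the extrinsic to the intrinsic route, had 6.55 and 6.83 in BORG/sgTRIM28 cells, 5.72 and 6.36 in BORG cells and 6.63 and 6.68 in parental cells. Its BORG arrays lay far apart, and neither change, 0.65 nor -0.62, passed. Bmf, the partner of BIM in anoikis, was dim at 4.53 to 4.98 over all arrays. Bbc3, which encodes the p53 target PUMA, Bad, Bik and Hrk had log2 changes between -0.29 and 0.25 in these comparisons, none past the threshold.

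BIM is a known target of FOXO transcription factors, so the 250 bases before the start of each gene were searched on both strands for TGTTTAC, the core of a FOXO site, in the RefSeq promoters of mouse build GRCm38.p6. Of the 40 genes, 35 matched a promoter, 47 promoters in all. The letters were in 3 of the 35 (8.57%), Bcl2l11, Bbc3 and Casp4, against 3.54% of all genes with a promoter. The Bcl2l11 promoter is shown because it carries the match in the gene with the steepest fall among BH3-only genes. It lies at chr2:128125788-128126037 on the plus strand, 1 of 2 listed for the gene, with the match on the opposite strand in capitals, 227 bases before the start. A match is a description of letters and not a site in use.
Bcl2l11: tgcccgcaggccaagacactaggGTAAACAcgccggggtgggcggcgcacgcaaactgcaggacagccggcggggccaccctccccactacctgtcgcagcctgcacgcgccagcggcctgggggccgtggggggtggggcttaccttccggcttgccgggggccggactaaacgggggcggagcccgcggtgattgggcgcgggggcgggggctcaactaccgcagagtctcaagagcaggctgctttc

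The effector genes Bok and Bak1 differed in their values. Bok, a relative of BAX and BAK, had signals of 7.83 and 7.59 in BORG/sgTRIM28 cells, 8.74 and 8.57 in BORG cells and 7.58 and 7.73 in parental cells. Its log2 change was -0.95 (SE 0.14, 0.519-fold, adjusted p = 0.0135 from limma) in BORG/sgTRIM28 against BORG cells and 1.00 (adjusted p = 0.0141) in BORG against parental cells. Bok was thus highest in BORG cells. Bak1, which encodes the pore-forming effector BAK, had 9.58 and 9.68 in BORG/sgTRIM28 cells, 9.63 and 9.48 in BORG cells and 9.50 and 9.57 in parental cells. The groups overlapped in both comparisons, with log2 changes of 0.08 (adjusted p = 0.757) and 0.02 (adjusted p = 0.957).

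Bnip3, a BCL2-related mitochondrial protein that marks mitochondria for removal and is a known hypoxia target, had the largest rise of the 40 genes in BORG against parental cells. Its signals were 8.36 and 8.13 in BORG/sgTRIM28 cells, 9.89 and 9.30 in BORG cells and 7.83 and 7.96 in parental cells. The BORG arrays were the highest and stood 0.58 apart. The change was -1.35 (SE 0.21, 0.392-fold, adjusted p = 0.0161 from limma) in BORG/sgTRIM28 against BORG cells and 1.70 (3.26-fold, adjusted p = 0.00969) in BORG against parental cells. BORG/sgTRIM28 cells differed from parental cells by 0.35 (adjusted p = 0.711).

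Among the 4 apoptotic caspases, the initiator Casp8 was the one called in both comparisons that use the BORG arrays. Casp8, the protease recruited to death receptors, had signals of 10.29 and 10.54 in BORG/sgTRIM28 cells, 11.66 and 11.34 in BORG cells and 10.43 and 10.44 in parental cells. Its log2 change was -1.09 (SE 0.16, 0.471-fold, adjusted p = 0.0126 from limma) in BORG/sgTRIM28 against BORG cells and 1.06 (2.09-fold, adjusted p = 0.0163) in BORG against parental cells. Casp6, an executioner caspase that cleaves lamin A, had 8.64 and 8.59 in BORG/sgTRIM28 cells, 9.95 and 9.31 in BORG cells and 8.76 and 8.67 in parental cells. It fell by 1.01 on the log2 scale in BORG/sgTRIM28 against BORG cells (adjusted p = 0.0388), or by 0.69 without BORG replicate 1 (adjusted p = 0.0611), and its change of 0.92 in BORG against parental cells did not pass (adjusted p = 0.0607). Casp9, the caspase of the apoptosome, had 6.82 and 6.83 in BORG/sgTRIM28 cells, 7.09 and 6.98 in BORG cells and 6.90 and 6.81 in parental cells. Its log2 changes of -0.22 and 0.18 did not pass, nor did those of Casp2, an initiator engaged by the PIDDosome, 0.29 and -0.35.

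The inflammatory caspase family ran opposite to Casp8 in its values. Casp1, the inflammasome protease that matures interleukin-1 beta and cleaves gasdermin D, had signals of 8.51 and 8.64 in BORG/sgTRIM28 cells, 7.49 and 7.57 in BORG cells and 8.62 and 8.54 in parental cells. The BORG arrays were the lowest, and the arrays of the other groups overlapped. The log2 change was 1.04 (SE 0.11, 2.06-fold, adjusted p = 0.00514 from limma) in BORG/sgTRIM28 against BORG cells and -1.05 (0.483-fold, adjusted p = 0.00629) in BORG against parental cells. Casp12, known in mouse for its place at the endoplasmic reticulum, had 6.73 and 6.74 in BORG/sgTRIM28 cells, 5.99 and 5.54 in BORG cells and 6.16 and 6.27 in parental cells. It rose in BORG/sgTRIM28 against BORG cells by a log2 change of 0.97 (adjusted p = 0.0226), while -0.45 in BORG against parental cells did not pass (adjusted p = 0.193). Casp4, which encodes the lipopolysaccharide-sensing caspase-11 of mice, had changes of 0.88 (adjusted p = 0.102) and -0.77 (adjusted p = 0.159), with BORG arrays at 5.33 and 6.04. These caspases lie side by side on chromosome 9, with 0 other protein-coding genes between Casp1 and Casp4 or between Casp4 and Casp12 in the RefSeq table.

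**Figure D3:**
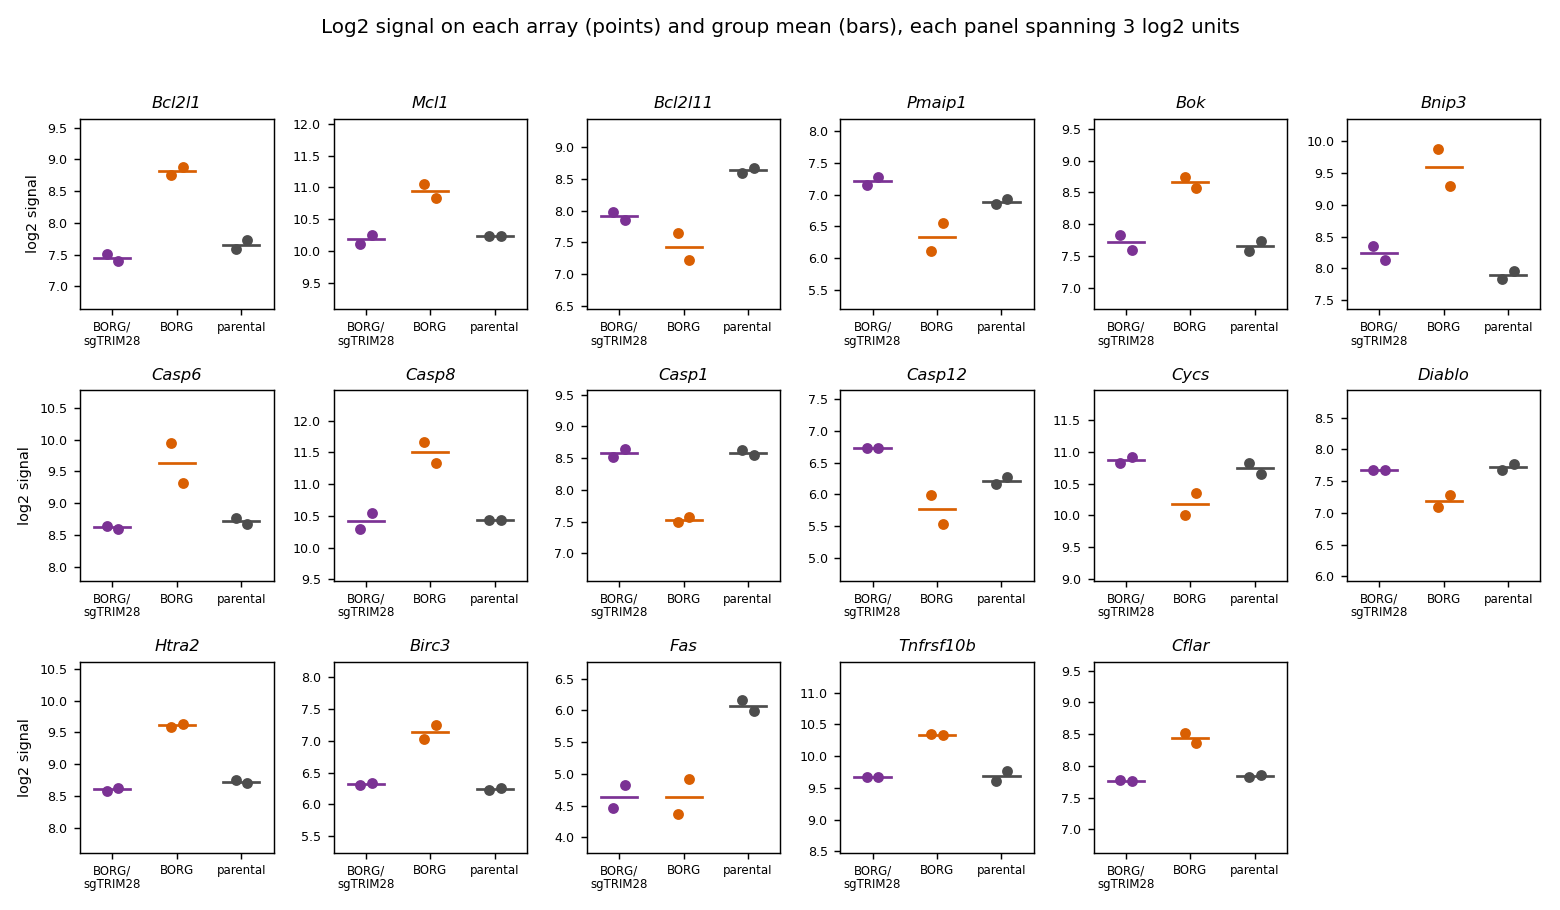
Log2 signal on each array (points, vertical axis in log2 units, 3 units in every panel but with different starts) and group mean (bars) of the 17 genes past the adjusted threshold in at least 1 comparison, with BORG/sgTRIM28, BORG and parental cells from left to right. The BORG arrays stand above the other 4 for genes such as Bcl2l1 and Casp8 and below them for genes such as Casp1, whereas Fas is high on the parental arrays alone.

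The mitochondrial factors did not move as 1 group, with 1 gene higher and 1 lower of 6 in each of the comparisons that use the BORG arrays. Htra2, a mitochondrial serine protease that binds IAP proteins once released, had signals of 8.58 and 8.63 in BORG/sgTRIM28 cells, 9.58 and 9.63 in BORG cells and 8.75 and 8.70 in parental cells. Its log2 change was -1.01 (SE 0.10, 0.498-fold, adjusted p = 0.00473 from limma) in BORG/sgTRIM28 against BORG cells and 0.88 (1.85-fold, adjusted p = 0.00858) in BORG against parental cells. Diablo, which encodes the IAP antagonist SMAC, had 7.68 and 7.67 in BORG/sgTRIM28 cells, 7.08 and 7.28 in BORG cells and 7.68 and 7.77 in parental cells. Its log2 change of -0.54 in BORG against parental cells (adjusted p = 0.0494) was just inside the threshold, and its change of 0.49 in BORG/sgTRIM28 against BORG cells lay just outside (adjusted p = 0.0554). Cycs, which encodes cytochrome c, had 10.82 and 10.93 in BORG/sgTRIM28 cells, 10.01 and 10.35 in BORG cells and 10.83 and 10.66 in parental cells. Its rise of 0.69 in BORG/sgTRIM28 against BORG cells passed (adjusted p = 0.0438), and -0.56 in BORG against parental cells did not (adjusted p = 0.0914). There were 4 further, dimmer clusters named Cycs, of which a pair held identical values, and their log2 changes of 0.51 to 0.89 in BORG/sgTRIM28 against BORG cells did not pass. Apaf1, the apoptosome scaffold, and Aifm1 and Endog, which act on DNA without caspases, did not pass, and the BORG arrays of Apaf1 stood at 7.53 and 6.64.

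All 4 IAP genes were lower in BORG/sgTRIM28 than in BORG cells and higher in BORG than in parental cells in their values, without overlap of the arrays (20.5% of all clusters lay lower without overlap in the first comparison and 21.7% higher in the second), but only Birc3 passed. Birc3, which encodes cIAP2, a ubiquitin ligase of TNF receptor signaling, had signals of 6.30 and 6.34 in BORG/sgTRIM28 cells, 7.02 and 7.24 in BORG cells and 6.23 and 6.25 in parental cells. The log2 change was -0.82 (SE 0.12, 0.568-fold, adjusted p = 0.0135 from limma) in BORG/sgTRIM28 against BORG cells and 0.89 (1.85-fold, adjusted p = 0.0128) in BORG against parental cells. Its neighbor Birc2, which encodes cIAP1, had smaller changes of -0.38 (adjusted p = 0.138) and 0.25 (adjusted p = 0.345). Xiap, the direct caspase inhibitor, had -0.40 (adjusted p = 0.0774) and 0.23 (adjusted p = 0.296). Birc5, which encodes survivin, a protein of the mitotic spindle as well, had -0.34 (adjusted p = 0.206) and 0.50 (adjusted p = 0.0956).

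Of the death receptors, Fas fell and Tnfrsf10b rose in BORG against parental cells, and the Fas values of BORG/sgTRIM28 cells lay between those of the BORG arrays. Fas, the receptor of FASL, had signals of 4.46 and 4.82 in BORG/sgTRIM28 cells, 4.36 and 4.91 in BORG cells and 6.16 and 5.99 in parental cells. The first 4 values lay below the series median of 5.21, where signal over background is unknown. The log2 change was -1.44 (SE 0.22, 0.369-fold, adjusted p = 0.0186 from limma) in BORG against parental cells. Between BORG/sgTRIM28 and BORG cells it was 0.00, with a 95% confidence interval of -0.54 to 0.54. Against parental cells, BORG/sgTRIM28 cells also stood at -1.44 (95% confidence interval -1.98 to -0.90), yet did not pass after adjustment within that comparison (adjusted p = 0.136), where far fewer clusters passed. With 1 cluster per gene in the fit it did pass (adjusted p = 0.0334). Fasl was at 3.86 to 4.19 on all arrays.

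Tnfrsf10b, the only TRAIL receptor of mice with a death domain, had signals of 9.67 and 9.67 in BORG/sgTRIM28 cells, 10.35 and 10.33 in BORG cells and 9.61 and 9.77 in parental cells. Its log2 change was -0.67 (SE 0.11, adjusted p = 0.0194 from limma) in BORG/sgTRIM28 against BORG cells and 0.64 (1.56-fold, adjusted p = 0.0259) in BORG against parental cells. Cflar, which encodes cFLIP, had 7.77 and 7.76 in BORG/sgTRIM28 cells, 8.51 and 8.37 in BORG cells and 7.82 and 7.86 in parental cells. It fell by 0.67 on the log2 scale in BORG/sgTRIM28 against BORG cells (adjusted p = 0.0186) and rose by 0.60 in BORG against parental cells (adjusted p = 0.0311). Casp8 and the gene of its inhibitor were thus both highest in BORG cells. They are adjacent on chromosome 1, with 0 protein-coding genes between them. The adaptors Fadd and Tradd did not pass, with log2 changes of 0.32 and -0.28 in BORG/sgTRIM28 against BORG cells and -0.12 and 0.41 in BORG against parental cells. Of the necroptosis genes, Mlkl, the pore former, was among the brightest at 10.63 to 10.86 and Ripk3, the kinase that activates it, was dim at 4.50 to 5.09. Ripk3 differed by 0.51 on the log2 scale between BORG/sgTRIM28 and parental cells, which did not pass (adjusted p = 0.271), and no necroptosis gene passed in any comparison.

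Because Bnip3 is a hypoxia target, the same 250 bases were searched for ACGTG, the core of a hypoxia-inducible factor site, on both strands. It was in 11 of the 35 genes with a promoter (31.4%), against 18.5% of all genes with a promoter. The letters are part of the E-box CACGTG, which 5 of the 35 held (14.3%), against 6.86% of all genes. Of the 11 genes, 1 rose in BORG against parental cells (Bnip3), 2 fell (Casp1 and Fas) and 8 did not pass. Over the 40 genes 9 rose, 4 fell and 27 did not pass, and 7.09% of all clusters passed. Bbc3 and Ripk3, which also held the E-box, changed by -0.06 and 0.29, neither past the threshold. The part of the motif in these changes was not tested. The promoters of Bnip3, Casp1 and Fas are shown because the match is the same and the direction is not, each with CACGTG in capitals. They lie in build GRCm38.p6 at chr7:138909507-138909756 on the minus strand for Bnip3, at chr9:5298267-5298516 on the plus strand for Casp1 and at chr19:34290409-34290658 on the plus strand for Fas. The E-box begins 108 bases before the start in Bnip3, 137 in Casp1 and 110 in Fas.
Bnip3: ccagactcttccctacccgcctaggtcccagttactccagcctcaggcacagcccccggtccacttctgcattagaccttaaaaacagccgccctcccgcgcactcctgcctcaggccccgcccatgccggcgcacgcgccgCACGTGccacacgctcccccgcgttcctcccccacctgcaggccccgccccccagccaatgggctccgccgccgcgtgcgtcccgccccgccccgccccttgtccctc
Casp1: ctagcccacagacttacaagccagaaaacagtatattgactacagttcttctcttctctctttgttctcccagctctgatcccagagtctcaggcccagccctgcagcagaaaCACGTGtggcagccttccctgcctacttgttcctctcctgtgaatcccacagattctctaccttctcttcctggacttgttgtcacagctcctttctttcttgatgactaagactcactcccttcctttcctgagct
Fas: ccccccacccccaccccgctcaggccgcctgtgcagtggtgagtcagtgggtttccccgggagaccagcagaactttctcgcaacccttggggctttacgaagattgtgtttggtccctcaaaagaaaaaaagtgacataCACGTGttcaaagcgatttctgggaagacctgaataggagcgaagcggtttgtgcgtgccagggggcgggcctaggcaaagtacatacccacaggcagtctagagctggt
A search for the kappa B motif of NF-kB by its consensus found a match in 5 of the 35 (14.3%), Aifm1, Bbc3, Bcl2l1, Birc5 and Casp4, against 4.46% of all genes, and the letters were not in this window of Birc3 or Cflar. The AP-1 letters TGANTCA were in 1 of the 35, Fas (2.86%), against 7.82% of all genes.

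The arrays of BORG cells differed from each other more than the arrays of either other group for 28 of the 40 genes (70.0%), and for 41.3% of all clusters. The median difference between the 2 arrays over the 40 genes was 0.0997 in BORG/sgTRIM28 cells, 0.190 in BORG cells and 0.0849 in parental cells on the log2 scale. BORG replicate 1 was the farther from the parental mean for 26 of the 40 genes (65.0%), and for 56.4% of all clusters. The standard error of a difference ran between 0.102 and 0.284 over the 40 genes, highest for Apaf1, Casp4 and Bid.

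Of 71 further genes of the same pathways, listed by role, 60 were found. In BORG/sgTRIM28 against BORG cells 10 of the 60 passed (16.7%), 8 lower and 2 higher, beside 9.55% of all clusters, 12.5% of all named genes and 21.6% of named genes brighter than the median cluster, as 44 of the 60 were. In BORG against parental cells 6 passed, all higher, beside 7.09%, 9.7% and 16.9% of the same sets. Between BORG/sgTRIM28 and parental cells 0 passed in limma and by the methods' t-test after adjustment, and 11 had an unadjusted limma p under 0.05, beside 8.7% of all clusters. Leaving out any single array lowered the first count, most without BORG/sgTRIM28 replicate 2. The second count fell without either parental array or without BORG replicate 1. Calls over all clusters fell too in these settings, except that they rose without BORG replicate 2 in the first comparison.

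Gsdmd, whose protein forms the membrane pores of pyroptosis once a caspase cleaves it, had signals of 5.57 and 5.52 in BORG/sgTRIM28 cells, 8.36 and 7.99 in BORG cells and 6.36 and 6.27 in parental cells. Its log2 change was -2.63 (SE 0.15, adjusted p = 0.000736 from limma) in BORG/sgTRIM28 against BORG cells and 1.85 (adjusted p = 0.00268) in BORG against parental cells, whereas Casp1, which cleaves its product, ran the other way. Tnfrsf23, a mouse decoy receptor for TRAIL, had 10.47 and 10.34 in BORG/sgTRIM28 cells, 12.45 and 12.01 in BORG cells and 10.42 and 10.40 in parental cells, with changes of -1.82 (adjusted p = 0.00302) and 1.81 (adjusted p = 0.00393). Its adjacent relative Tnfrsf22, also a decoy, had changes of -1.31 (adjusted p = 0.00567) and 1.02 (adjusted p = 0.0150). Both decoys and the death receptor Tnfrsf10b were thus high in BORG cells, and cross-hybridization between such relatives was not tested. Tnfaip3, which encodes A20, an inhibitor of TNF signaling, had 5.78 and 5.76 in BORG/sgTRIM28 cells, 7.46 and 7.49 in BORG cells and 6.12 and 6.25 in parental cells. Its changes were -1.70 (adjusted p = 0.00101) and 1.29 (adjusted p = 0.00297). Traf1, a partner of the cIAP proteins, had -0.84 (adjusted p = 0.0132) and 0.92 (adjusted p = 0.0125), and the death receptor gene Tnfrsf21 had -0.83 (adjusted p = 0.00816) and 0.58 (adjusted p = 0.0285). Parp1, a DNA repair enzyme that caspases cleave, rose by 0.58 (adjusted p = 0.0367) in BORG/sgTRIM28 against BORG cells, and Zbp1, a nucleic acid sensor of necroptosis, by 0.76 (adjusted p = 0.0297). Cyld and Tnfrsf1a, by contrast, fell by 0.50 and 0.47 on the log2 scale in that comparison.

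**Figure D4:**
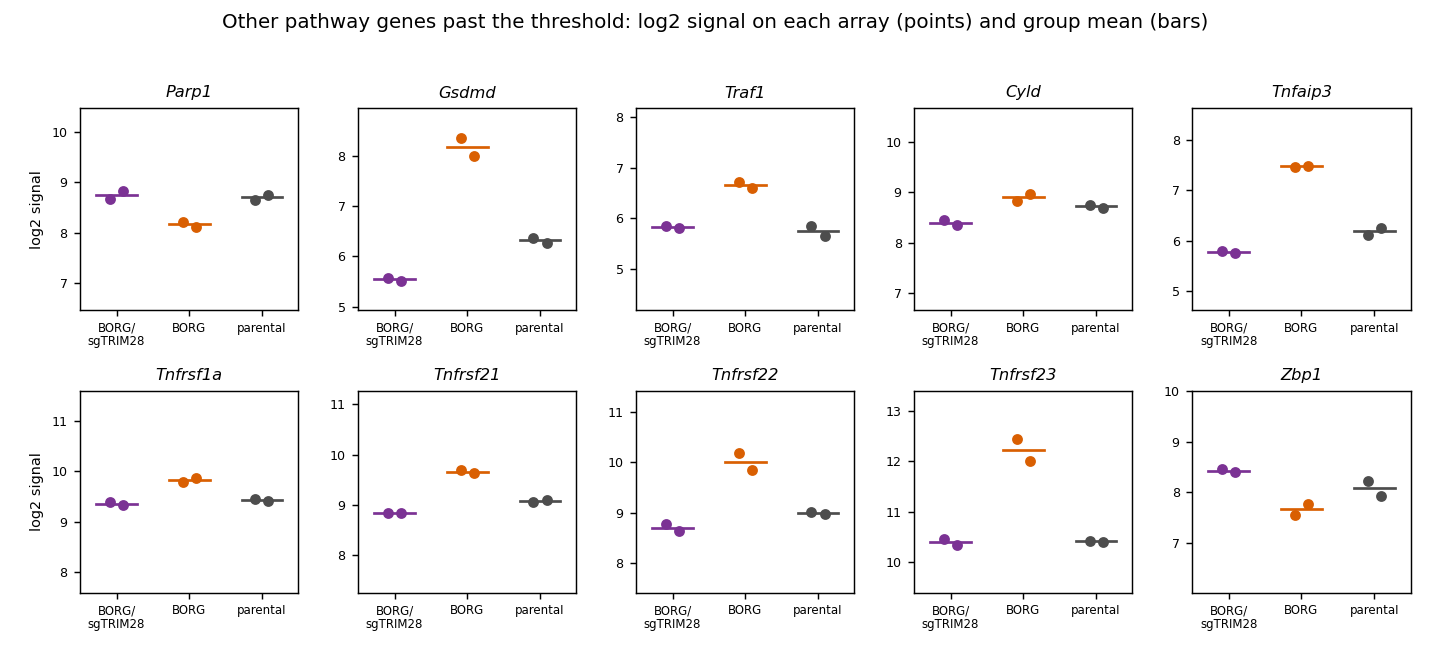
Log2 signal on each array (points, vertical axis in log2 units, the same span in every panel but different starts) and group mean (bars) of the 10 further pathway genes past the adjusted threshold in at least 1 comparison, with BORG/sgTRIM28, BORG and parental cells from left to right. Gsdmd and Tnfaip3 are highest on the BORG arrays and lowest on the BORG/sgTRIM28 arrays, while Parp1 and Zbp1 are lowest on the BORG arrays.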

How the data were processed

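RNA of 6 samples of D2.OR cells was measured, each on its own Affymetrix Mouse Gene 2.0 ST array. The authors normalized probe intensities and controlled quality with Affymetrix Expression Console, and Transcriptome Analysis Console is named in the submitters' processing notes. They deposited a log2 value for each transcript cluster on each array. How probes were summarized, and in which software version, was not given in the sources used here. With no detection values, signal over background is unknown, and precision is limited by the number of arrays. Symbols came from the platform annotation: of 41345 clusters, 23521 carried 1 symbol, 1820 several and 16004 none. Clusters with several symbols were assigned to no gene. All 40 genes matched the RefSeq gene table of GRCm38.p6 by Entrez ID.

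Differences were fitted with limma 3.58.1 in R 4.3.3 over all 6 arrays as 3 group means. The moderated tests used 3 residual degrees of freedom and 3.04 from the prior, and p-values were adjusted by Benjamini-Hochberg over the clusters of each comparison, with a threshold of 0.05. The fit was tested on simulated data. Same-numbered arrays did not deviate together (correlations 0.0413, -0.0415 and -0.0149), so the numbers were not taken to pair the samples. The genes, the further pathway genes and the promoter motifs were chosen with earlier results of these data known. Values of all 6 arrays were given for genes past the threshold in any comparison and for Bcl2, Bak1, Casp9 and Fas, with Bid added after its values were seen, and the others were given in ranges, by their changes or by their BORG arrays. Up to 8 further pathway genes per comparison were named by the size of their change, with Cyld and Tnfrsf1a added after their values were seen, and of these Gsdmd, Tnfrsf23 and Tnfaip3 were given by array, the others by their changes. Promoters were the 250 bases before each RefSeq start. As alternatives, the fit was repeated with a replicate block, on only the 4 arrays compared, with a variance trend, after quantile normalization or median centring, on the brighter clusters alone, on 1 cluster per gene, by the methods' t-test and without each array in turn.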

Additional observations from a re-analysis of the deposited data

How the results depend on the processing

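No result changed direction with a call under any alternative tried. For BORG/sgTRIM28 against BORG cells, where 14 of the 40 genes passed, the count was 8 with only the 4 arrays compared, 0 by the methods' t-test and 3 to 16 when single arrays were left out. For BORG against parental cells, where 13 passed, it was 0 by the methods' t-test, 9 with only the 4 arrays compared and 0 to 15 when single arrays were left out. With an array left out, the lone array of its group is assumed to vary like the others. Fewer arrays leave fewer degrees of freedom, and other causes of these drops were not tested. For BORG/sgTRIM28 against parental cells the count of 0 became 1, Fas, with 1 cluster per gene, and stayed 0 when single arrays were left out. The replicate block gave 13, 9 and 0 genes in the 3 comparisons, beside 6.53%, 4.91% and 0.00242% of all clusters. It ended the calls of Cycs in the first and of Mcl1, Diablo, Tnfrsf10b and Cflar in the second. Of the further pathway genes, the replicate block passed 6, where 10 had passed, in BORG/sgTRIM28 against BORG cells, and in BORG against parental cells 11 passed among brighter clusters and 12 with 1 cluster per gene, where 6 had passed, beside 21.7% and 16.8% of all clusters under those settings. Over all clusters, median centring gave 1252 higher and 2446 lower in BORG/sgTRIM28 against BORG cells, beside 1753 and 2194 as deposited. The third comparison's 50 clusters became 1 with the block or with only the 4 arrays compared, and 135 with 1 cluster per gene.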
